A study of Mus musculus with 27 samples.

Results

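The second of 2 short hairpin RNAs (shRNAs) directed at Gas41, shGas41-2, was compared with a control shRNA in J1 mouse embryonic stem cells (mESCs). The comparison was defined by the deposited count table that pairs shGas41-2 with the control, and it covered 5 of the 27 samples of the series and all 25216 genes that the table lists. The series also holds ChIP-seq of H2AZ and histone marks, embryoid bodies and a first shRNA, shGas41-1. The question addressed is which genes change when Gas41 is depleted by a second hairpin aimed at another stretch of its mRNA.

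Gas41 is encoded by Yeats4 and is a subunit shared by SRCAP and Tip60/p400, chromatin complexes that exchange the histone variant H2A.Z into nucleosomes. Its YEATS domain binds acetylated lysines of histone H3. In mESCs, H2A.Z lies at the promoters of active genes and of developmental genes that are held silent but poised, and Polycomb complexes occupy many of the latter.

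The 3 hairpins are set apart by the stretch of mRNA they were designed to pair with, shown here because each result rests on which hairpin the cells received. The targets are written 5′ to 3′ as DNA in the sense direction, and the capitals mark the 7 bases at target positions 14 to 20 that face guide bases 2 to 8, the seed.
shGas41-2: atcgttaagccaaTCGTTTAt
shGas41-1: gtagcattccacgACGTTAAg
Control: caacaagatgaagAGCACCAa
The shGas41-2 target lies at chr10:116659320-116659340 of mm9 on the minus strand, in coding sequence of exon 2 of Yeats4. The shGas41-1 target lies at chr10:116652513-116652533, in the 3′ UTR of exon 7. Each of these matched the genome at 1 place, and the control sequence had no exact match.

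The control group, shCon, had 3 libraries, shGas41-2 had 2 and shGas41-1 had 3. All were J1 cells grown on gelatin without feeder cells and with leukemia inhibitory factor, infected with lentivirus and selected with puromycin, and the knockdown cells were taken 8 days after infection. The 5 libraries compared held between 59224537 and 81524773 counts, and 3 counts were worth between 0.0368 and 0.0494 CPM (counts scaled to equal totals). Since several reads can come from 1 molecule, this floor covers counting error only. The study's methods state that experiments were repeated biologically, but the labels do not say which libraries came from separate cultures, so p-values measure the spread between these libraries, which may be technical. Counting error alone did not account for the spread within groups, since the chi-square divided by its degrees of freedom was 27.3 between the 2 shGas41-2 libraries and 28.6 to 75.9 between shCon libraries.

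The labelled cell type was checked against its markers. Pou5f1, Sox2 and Nanog were detected in every library, as given below. Of 12 fibroblast marker genes listed, 5 had enough counts for a test, and none passed with edgeR's quasi-likelihood test, 2 had an unadjusted p under 0.05, and 1 passed with DESeq2 and with edgeR's exact test. Dcn and Lum had 0 counts in all 5 libraries, and the summed level of the 12 was 16.2 to 26.5 CPM in shCon and 23.7 to 24.0 CPM with shGas41-2. Of 12 blood and endothelial markers listed, 8 were tested, and their summed level was 49.4 to 64.1 CPM in shCon and 69.8 to 71.2 CPM with shGas41-2. Cdh5, an endothelial cadherin, was higher (FDR = 0.011) and Tek, an endothelial receptor, was lower (FDR = 0.036). At an unadjusted p under 0.05, 5 of the 8 were higher and 1 was lower, and the median log2 fold change was 0.59. DESeq2 gave 1 higher and 1 lower, and the exact test gave 3 and 1. Without the shGas41-2 libraries Cdh5 would not have had enough counts for a test. In bulk RNA, fewer cells of a type and less RNA per cell cannot be told apart.

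Yeats4 (chr10:116652198-116661563 of mm9, minus strand) was measured at 61.6, 53.1 and 50.1 CPM in the shCon libraries and at 8.69 and 7.94 CPM with shGas41-2, so that both knockdown libraries lay far below all controls. The log2 fold change was −2.71, with a standard error of 0.13 and an FDR of 9.3e-04. FDR values here are from edgeR's quasi-likelihood test with Benjamini-Hochberg adjustment over all genes tested. With shGas41-1 Yeats4 stood at 3.44, 4.41 and 5.16 CPM. The difference between the hairpins was 0.94 on the log2 scale (95% interval 0.54 to 1.34, unadjusted p = 4.0e-04), with more Yeats4 RNA after shGas41-2 in both libraries than in any shGas41-1 library, and it did not pass adjustment over all genes (FDR = 0.20).

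At a change of 2-fold or more, the rises outnumbered the falls. Of 18405 genes with enough counts for a test, 728 were at least 2-fold higher at an FDR of 0.05 (3.96% of the genes tested) and 160 were at least 2-fold lower (0.869%), together 888 (4.82%). With no limit on the size of the change, 1094 genes were higher (5.94%) and 730 were lower (3.97%), and with scaling by library size alone these were 961 and 1290, so that the order turned. Every shGas41-2 library lay above every shCon library for 4129 genes (22.4%) and below for 4554 genes (24.7%), so that a lack of overlap alone is common with 2 libraries against 3. The median log2 fold change was −0.01 over all genes tested, 1.65 over the called rises and −1.20 over the called falls.

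The rises lay mostly in genes with few counts in control cells. Of 4483 genes with a mean under 1 CPM in shCon, 366 rose and 22 fell, and of 4665 genes from 1 to 10 CPM, 211 rose and 96 fell. A gene low in controls can reach the count filter through the knockdown libraries, which favours rises in this range. Without the shGas41-2 libraries 718 of the 4483 genes would not have reached it, and they include 112 of the 366 rises. From 10 to 100 CPM, 91 of 7264 genes rose and 40 fell, and over 100 CPM, 60 of 1993 rose and 2 fell. Protein-coding genes made up 81.1% of the called rises and 90% of the called falls, and 44 long intergenic non-coding RNAs rose and 6 fell. Single libraries weighed heavily on the counts. The rises and falls numbered 1174 and 293 without shCon 1, 397 and 68 without shCon 2, and 599 and 105 without shCon 3. They numbered 300 and 47 without shGas41-2 1, and 269 and 18 without shGas41-2 2.

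**Figure D1:**
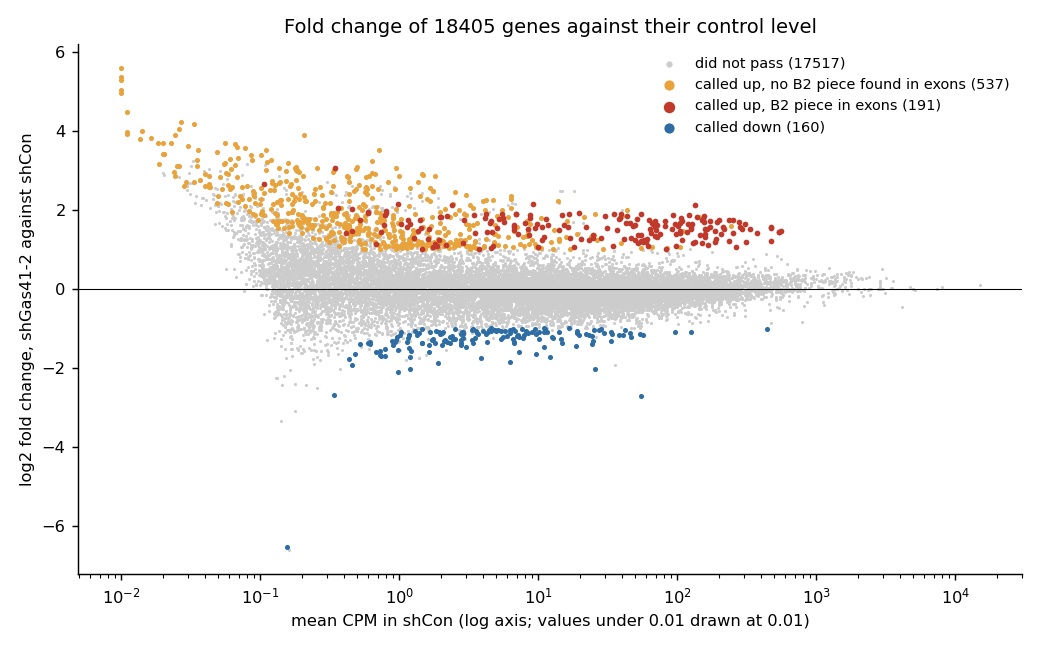
Each point is 1 of the 18405 genes tested, with its mean CPM in the shCon libraries on a log axis and its log2 fold change with shGas41-2 on the vertical axis, and colours mark genes called up, called up with B2 sequence in their exons, and called down. The called rises over 10 CPM are mostly genes that hold B2 sequence, and no called fall holds it.

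Most called rises in well-expressed genes had a sequence in common in their exons. Sequences of 31 bases that occur at least 100 times on chromosome 19 of mm9 were joined into 43 repeat families without use of any measured value, and 16 of these were held in the exons of at least 20 genes tested. The 3 families with the highest share of called rises, picked after their values were seen, were adjoining pieces of the same repeat, the mouse B2 element, a short interspersed element transcribed by RNA polymerase III. The pieces are shown because they are what most of these genes had in common, 5′ to 3′ in the direction of B2 transcription, joined from the most frequent overlapping runs, and the capitals mark the most frequent 31 bases of each.
B2 piece 1: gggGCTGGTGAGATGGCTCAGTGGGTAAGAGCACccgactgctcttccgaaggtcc
B2 piece 2: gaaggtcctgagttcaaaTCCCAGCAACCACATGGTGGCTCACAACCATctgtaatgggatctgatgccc
B2 piece 3: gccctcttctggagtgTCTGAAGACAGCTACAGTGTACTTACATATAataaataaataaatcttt
The capitals of pieces 1, 2 and 3 occurred 353, 833 and 406 times on chromosome 19.

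A gene was said to hold a piece where its annotated exons match any 31 bases of that family on either strand. Of 144 genes tested that hold piece 1, 94 rose at least 2-fold (65.3%) and 0 fell, with a median log2 fold change of 1.38. The share was 23.7% of 755 genes with piece 2 and 33.7% of 389 genes with piece 3, and 0 fell in either. The next family in this order reached 8.78%. With no limit on size, at an FDR of 0.05, 116 of the 144 genes were higher and 0 were lower, and 0 were lower at an unadjusted p under 0.05 or with DESeq2 or the exact test. Any of the 3 pieces was held by 855 of 18339 genes with annotated exons (4.66%), and of these 191 rose (22.3%) and 0 fell, against 532 rises (3.04%) and 160 falls among the 17484 others. With no limit on size, 267 of the 855 were higher and 17 were lower. The 191 were 26.4% of the called rises with annotated exons.

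The difference was widest at high expression. At 10 CPM or more in shCon, 122 of 601 genes with a B2 piece rose, against 28 of 8649 without one (0.324%). Over 100 CPM these were 56 of 180 (31.1%) and 3 of 1809 (0.166%). Of 833 genes at 10 CPM or more with another family, taken as the mouse repeat B1, and no B2 piece, 1 rose. The most frequent 31 bases of that family were of low complexity, and its match to B1 was not tested. The called rises with B2 sequence had a median log2 fold change of 1.55 (quartiles 1.32 and 1.74), against 1.75 (1.32 and 2.43) for the other called rises. At 10 CPM or more the order of the medians turned, with 1.52 (1.30 and 1.68) against 1.28 (1.06 and 1.61).

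**Figure D2:**
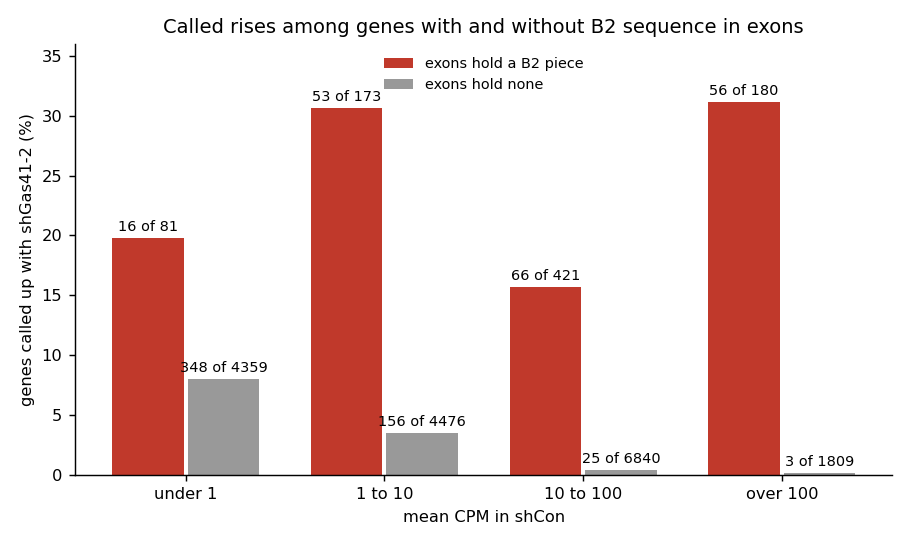
Bars give the percentage of genes called up with shGas41-2 in 4 ranges of mean shCon CPM, for genes whose exons hold a B2 piece and genes whose exons hold none, with the number called of the number tested above each bar. The share with a B2 piece lies between 15.7% and 31.1%, and the share without falls from 7.98% under 1 CPM to 0.166% over 100 CPM.

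Summed over the 144 genes with B2 piece 1, the level was 19752, 20111 and 16274 CPM in shCon and 40562 and 45253 CPM with shGas41-2. It was 39738, 36328 and 56192 CPM with shGas41-1, so that every knockdown library of either hairpin lay above every control. In 125 of the 144 genes (86.8%) both shGas41-2 libraries lay above all 3 controls, against 22.4% of all genes tested. The B2 families were picked for their share of rises in these same libraries, so the shCon and shGas41-2 values here are not a separate result. The shGas41-1 libraries are set against the same controls. Between the hairpins, 1 of the 144 genes differed at an unadjusted p of 0.05 by edgeR's quasi-likelihood test. Of all genes in that comparison, 3.71% were lower and 3.33% were higher with shGas41-2 at that p. The median difference over the 855 genes with any piece was −0.04 on the log2 scale. Reads from B2 copies elsewhere in the genome and reads from these transcripts cannot be told apart in gene counts, so a rise in a gene with B2 sequence in its exons need not be a rise of that gene's mRNA, and the part of B2 sequence in the calls was not tested. Genes named below hold no B2 piece unless this is stated.

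The called rises named next were picked for the lowest FDR, and most of them hold B2 sequence. Furin, a protease that activates secreted precursors (chr7:87533471-87550322 of mm9), was at 67.6, 73.9 and 60.6 CPM in shCon and at 199 and 216 CPM with shGas41-2 (log2 fold change 1.63 ± 0.10 SE, FDR = 0.0015). Ing4, a reader of methylated histone H3, was at 205, 213 and 160 CPM in shCon and at 581 and 650 CPM with shGas41-2. Pola1, the catalytic subunit of DNA polymerase alpha, was at 138, 140 and 126 CPM in shCon and at 288 and 320 CPM with shGas41-2. The knockdown libraries lay well above the controls in each, and all 3 genes hold B2 sequence, as do Chpt1, a phospholipid-synthesis enzyme (1.76), and Stxbp2, a vesicle-fusion protein (log2 fold change 1.37). Part of the Ing4 exons (14.0%) also overlaps Acrbp. Among the genes picked in this way Arhgef2, an exchange factor for small GTPases, was the exception, and no B2 piece was found in its annotated exons. It was at 108, 120 and 101 CPM in shCon and 274 and 318 CPM with shGas41-2 (log2 fold change 1.45, FDR = 0.0015). Other called rises with a rounded FDR of 0.0015 or less were of both kinds. Aldh1a3 and Pola2 hold B2 sequence, and Dnmt3l, Cdkn1c, Efnb2 and Adipoq hold none.

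None of 12 core pluripotency factors passed an FDR of 0.05 with edgeR's quasi-likelihood test, and their median log2 fold change was 0.12. At an unadjusted p under 0.05, 2 were higher, and 2 passed with DESeq2 and with the exact test. Without shCon 1, 3 were higher, and without each other library 0 were. Pou5f1, which encodes Oct4, was at 1423, 1320 and 1157 CPM in shCon and at 1384 and 1466 CPM with shGas41-2 (log2 fold change 0.15, FDR = 0.38). Sox2, its partner on DNA, was at 371, 423 and 521 CPM in shCon and at 351 and 395 CPM with shGas41-2 (−0.22, FDR = 0.37). Nanog, a homeodomain factor of the same circuit whose exons hold B2 sequence, was at 837, 711 and 687 CPM in shCon and at 905 and 830 CPM with shGas41-2 (log2 fold change 0.23, FDR = 0.20). The groups overlapped for all 3. The nearest to the threshold were Trim28, a co-repressor of retroelements (0.29, FDR = 0.063), and Dppa2, an activator of early embryonic genes (0.55, FDR = 0.066), and 26.4% of the 50-base windows of Dppa2 also occur in other genes.

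Of 17 factors of the naive state, which marks the earliest pluripotent cells, 1 was lower and none was higher, beside 3.97% and 5.94% of all genes. With DESeq2 3 were lower, with the exact test 4 were lower and 1 was higher, and at an unadjusted p under 0.05, 5 were lower and 3 higher. Klf4, a zinc-finger factor of this state, was at 225, 230 and 312 CPM in shCon and at 167 and 155 CPM with shGas41-2, below all controls (log2 fold change −0.65, FDR = 0.041). Of 13 genes of the primed epiblast, the state that follows, 3 were higher and 1 was lower, beside 5.94% and 3.97% of all genes. With DESeq2 or the exact test 3 were higher and 4 were lower. Foxd3, a forkhead factor, had a log2 fold change of 0.67 (FDR = 0.011), Nodal, a ligand of the TGF-beta family, of 0.55 (FDR = 0.023), and Sox3 of 1.11 (FDR = 0.028). Fgf15 fell by 1.03 on the log2 scale (FDR = 0.036), and 26.4% of its exon bases overlap other genes. Klf4 and the 4 primed genes each lost the call when either shGas41-2 library was left out.

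**Figure D3:**
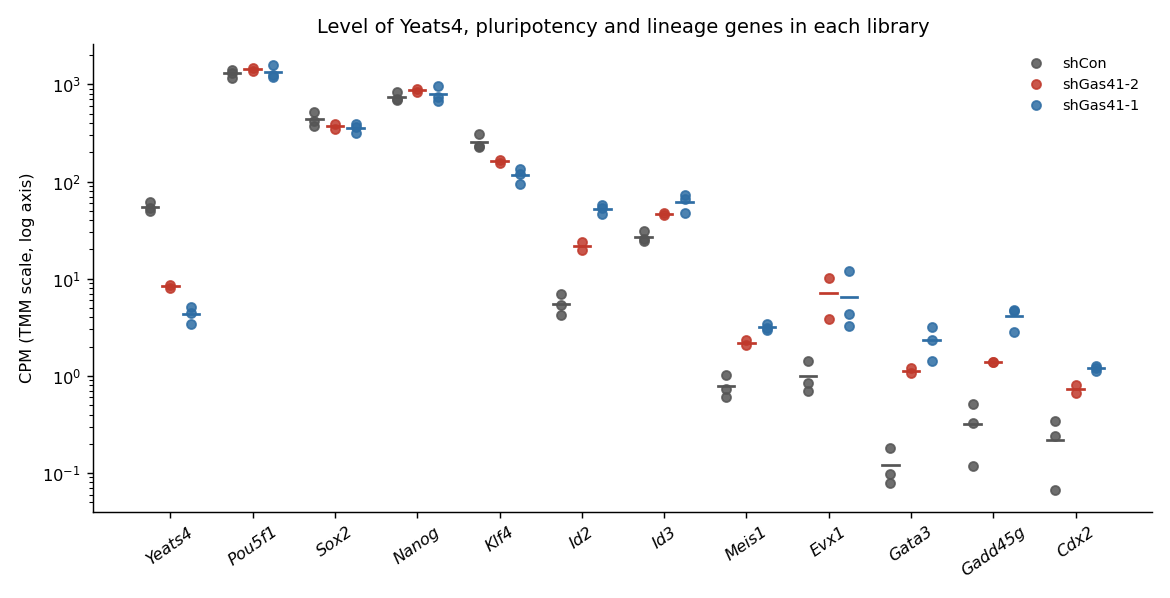
Points give the CPM of Yeats4 and 11 pluripotency and lineage genes in each of 8 libraries on a log axis, coloured by group, and bars mark group means. Yeats4 is lowest with shGas41-1, Pou5f1, Sox2 and Nanog overlap between groups, and Id2, Meis1, Evx1, Gata3 and Gadd45g lie above the controls with both hairpins.

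Of 22 primitive streak and mesoderm factors tested, 3 rose and none fell, beside 5.94% and 3.97% of all genes. DESeq2 and the exact test each gave 4 rises and 2 falls. Evx1, a homeobox gene of the posterior streak (chr6:52263492-52268372), was at 0.839, 1.42 and 0.704 CPM in shCon and at 3.85 and 10.3 CPM with shGas41-2 (log2 fold change 2.85 ± 0.43 SE, FDR = 0.0091). Its shGas41-2 libraries differed widely, although both lay above all controls. Meis2, a cofactor of Hox proteins, had a log2 fold change of 1.64 (FDR = 0.0065) and its relative Meis1 of 1.48 (FDR = 0.015), from 0.611 to 1.03 CPM in shCon to 2.06 and 2.32 CPM. The mesodermal factor Msx1 overlapped between groups (log2 fold change 0.83, FDR = 0.22), as did the epiblast growth factor Fgf5 (1.31, FDR = 0.25). Below all controls but short of the threshold were Tbx6 (−1.37, FDR = 0.067), Cdx1 (−0.75, FDR = 0.065) and Eomes (−0.67, FDR = 0.11), which were named after their values were seen. Of these calls, that of Evx1 was lost without shGas41-2 2 and that of Meis1 without either shGas41-2 library.

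Gata3, a zinc-finger factor of trophoblast (chr2:9778705-9811661), was at 0.181, 0.0985 and 0.0797 CPM in shCon and at 1.19 and 1.06 CPM with shGas41-2 (log2 fold change 3.26 ± 0.37 SE, FDR = 0.0028). Both knockdown libraries were well above all controls, and the call held without each library in turn. It was the only 1 of 15 trophoblast genes tested that passed, where 5.94% of all genes were higher. Without the shGas41-2 libraries Gata3 would not have reached the count filter. Cdx2, another trophoblast factor, was at 0.346, 0.239 and 0.0664 CPM in shCon and at 0.663 and 0.800 CPM with shGas41-2, without overlap but short of the threshold (log2 fold change 1.79, FDR = 0.068). Of 15 endoderm factors, 1 rose, beside 5.94% of all genes. It was Sox7, a factor of extraembryonic endoderm (log2 fold change 1.23, FDR = 0.029), and the call was lost without shCon 3 or either shGas41-2 library.

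Of 25 neural and neural crest factors, 2 rose, beside 5.94% of all genes. Of the 25, 20 were under 1 CPM in shCon. Without the shGas41-2 libraries 9 of the 25 would not have reached the count filter, including 1 of the 2 that rose. Sox8, a neural crest factor, was at 0.494, 0.703 and 0.584 CPM in shCon and at 1.51 and 1.55 CPM with shGas41-2 (log2 fold change 1.37, FDR = 0.017). Neurog1, a proneural factor, was at 0.0329, 0 and 0.0266 CPM in shCon, at or under the floor of 3 counts, and at 0.196 and 0.336 CPM with shGas41-2 (FDR = 0.025). Both neural calls were lost without either shGas41-2 library.

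Of the 39 Hox genes, which pattern the body axis, 25 had enough counts for a test. Of these 6 passed, all upward, beside 5.94% of all genes. Most are low genes, with 20 of the 25 under 1 CPM in shCon, where the median of all genes tested was 0.35, and the median of the 25 was 0.67. Without the shGas41-2 libraries 7 of the 25 would not have reached the count filter, including 2 of the 6 that passed. Hoxa13 was at 0.0987, 0.267 and 0.0929 CPM in shCon and at 0.773 and 1.28 CPM with shGas41-2 (log2 fold change 2.73, FDR = 0.015). From the D cluster, Hoxd10 had a log2 fold change of 2.28 (FDR = 0.022), Hoxd1 of 1.65 (FDR = 0.038) and Hoxd11 of 1.56 (FDR = 0.048). The number that passed was 7 without shCon 1, 2 without shCon 2, 3 without shCon 3, 1 without shGas41-2 1 and 0 without shGas41-2 2.

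The Id family encodes inhibitors of helix-loop-helix factors and is induced by BMP signalling. All 4 members had a positive log2 fold change, and Id2 and Id3 passed. Id2 (chr12:25778666-25780957) was at 5.41, 6.95 and 4.19 CPM in shCon and at 19.7 and 23.7 CPM with shGas41-2 (log2 fold change 1.99 ± 0.20 SE, FDR = 0.0018), and the call held without each library. Id3 was at 31, 25.8 and 24.4 CPM in shCon and at 47.0 and 44.7 CPM (log2 fold change 0.78, FDR = 0.011), and Id1 did not pass (0.63, FDR = 0.076). The Id3 call was lost without shCon 2 or either shGas41-2 library. Among 23 BMP and TGF-beta pathway genes the only call was Smad6, an inhibitory Smad (0.83, FDR = 0.018), beside 5.94% of all genes that were higher. The Smad6 call was lost in the same 3 settings.

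Of 30 Wnt pathway genes, 5 rose (16.7%, beside 5.94% of all genes) and none fell. Without the shGas41-2 libraries 1 of the 5 would not have reached the count filter. The secreted inhibitors Dkk1 (log2 fold change 1.90, FDR = 0.033), Sfrp5 (1.37, FDR = 0.0042) and Sfrp2 (1.02, FDR = 0.014) were among the 5 rises, as was Lef1, a nuclear effector whose exons hold B2 sequence (1.64, FDR = 0.0041). A related secreted inhibitor outside the list, Sfrp4, went the other way, from 13.3, 12.8 and 12.3 CPM in shCon to 5.20 and 5.39 CPM (log2 fold change −1.26, FDR = 0.0015). The FGF list gave 2 rises of 22 tested, Dusp4, an ERK phosphatase (1.38, FDR = 0.0029), and the receptor Fgfr2 (1.08, FDR = 0.031). The Notch list gave 1 rise of 16, the ligand Dll1 (1.44, FDR = 0.023), and 20.5% of its exon bases overlap other genes, as do 16.1% of those of Sfrp2. The FGF and Notch counts stand beside the 5.94% of all genes that were higher. The Wnt count was 2 without shCon 2, 3 without shGas41-2 1 and 0 without shGas41-2 2, the FGF count was 1 without shCon 2 or either shGas41-2 library, and the Dll1 call was lost without any of those 3.

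In the retinoic acid list, 4 of 13 genes rose and 1 fell, beside 5.94% and 3.97% of all genes. The enzymes that make retinoic acid were Aldh1a3, at 69.3, 70.1 and 48.3 CPM in shCon and 189 and 224 CPM with shGas41-2 (log2 fold change 1.74, FDR = 0.0015), and Aldh1a2, with a log2 fold change of 1.32 (FDR = 0.012). Aldh1a3 holds B2 sequence in its exons. The binding proteins went in opposite directions, with Crabp2 higher (1.38, FDR = 0.0063) and Crabp1 lower (−0.50, FDR = 0.039). Without shCon 2 or shGas41-2 1 the list gave 2 rises and 0 falls, and without shGas41-2 2 it gave 1 and 0.

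Genes of the 2-cell-like state, a rare state of mESC cultures that resembles the 2-cell embryo, had the highest median of all lists. Of 19 members tested 4 passed, all upward, beside 5.94% of all genes, and the median log2 fold change was 2.00. Without the shGas41-2 libraries 3 of the 19 would not have reached the count filter, including 2 of the 4, and over the other 16 the median was 1.99. The summed level of the list varied widely within groups, from 60.8 to 428 CPM in shCon and from 439 to 997 CPM with shGas41-2. Arg2, an arginase, was at 0.675, 0.352 and 0.239 CPM in shCon and at 4.14 and 1.81 CPM with shGas41-2 (log2 fold change 2.85, FDR = 0.012). Tdpoz4, a BTB-domain gene of early embryos, was at 0.165, 0.0703 and 0 CPM in shCon and at 1.23 and 0.516 CPM (log2 fold change 3.55, FDR = 0.032). Sp110, a nuclear body protein, had a log2 fold change of 2.39 (FDR = 0.032), and Tdpoz3, a BTB-domain gene like Tdpoz4, of 2.75 (FDR = 0.034). In each gene shCon 1 was the highest control and shGas41-2 1 the higher knockdown library. Copies share sequence, since 66.2% of the 50-base windows of Tdpoz3, 36.4% of those of Sp110 and 6.58% of those of Tdpoz4 occur in other genes, and 20.0% of the Arg2 exon bases overlap Vti1b. The number of members that passed was 17 without shCon 1, 1 without shCon 2, 3 without shCon 3, 0 without shGas41-2 1 and 1 without shGas41-2 2.

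Of 37 germline and meiosis genes tested, 10 rose and 4 fell, 27% and 10.8% of the list beside 5.94% and 3.97% of all genes. Dazl, an RNA-binding protein of germ cells, was at 6.76, 4.47 and 3.93 CPM in shCon and at 19.6 and 16.4 CPM with shGas41-2 (log2 fold change 1.85, FDR = 0.0034). Mael, a piRNA-pathway protein, had a log2 fold change of 1.66 (FDR = 0.0066), Smc1b, a meiotic cohesin, of 1.61 (FDR = 0.0028), and Stk31, a testis kinase, of 1.24 (FDR = 0.0086). Dazl, Mael and Smc1b kept their calls without each library, and Stk31 lost its call without either shGas41-2 library. The list gave 16 rises without shCon 1, 5 without shCon 2, 4 without shGas41-2 1 and 3 without shGas41-2 2, and the 4 falls became 1, 2 and 0 without the last 3 of these in turn.

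Dnmt3l, the cofactor of the de novo DNA methyltransferases, was at 39.6, 45.7 and 34.1 CPM in shCon and at 118 and 166 CPM with shGas41-2 (log2 fold change 1.85 ± 0.16 SE, FDR = 0.0014). It was the only call among 12 genes of DNA methylation and demethylation. That list leaves out Dnmt3a (−0.58, FDR = 0.073) and Dnmt3b (0.24, FDR = 0.15), which were counted with the primed epiblast genes and did not pass. Whether their exons hold B2 sequence is not reported here. Of 33 imprinted genes, 3 rose and 5 fell, beside 5.94% and 3.97% of all genes, with a median of 0.00. Cdkn1c, a growth-restraining CDK inhibitor, was at 15.8, 15.5 and 10.2 CPM in shCon and at 52.3 and 76.2 CPM (log2 fold change 2.23, FDR = 0.0015). Igf2, a growth factor, had a log2 fold change of 1.31 (FDR = 0.016) and Magel2 of 1.27 (FDR = 0.0087), while Zdbf2 was lower (−0.86, FDR = 0.012). Without shGas41-2 2 the list gave 1 rise and 0 falls, without shGas41-2 1 it gave 2 and 0, and without shCon 2 it gave 3 and 3.

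Apart from Yeats4, none of the 5 subunits listed as shared by SRCAP and Tip60/p400 passed. None of 8 entries on a list of H2A.Z genes, an H2A.Z chaperone and SRCAP subunits did. Srcap is on that list under separate gene identifiers, and not every subunit on it is particular to SRCAP. Of the 8, 1 was lower at an unadjusted p under 0.05, and 0 passed with DESeq2 or the exact test. The lowest p-values there were for Anp32e, an H2A.Z chaperone (log2 fold change −0.29, FDR = 0.15), and Vps72, an H2A.Z-binding subunit whose exons hold B2 sequence (−0.21, FDR = 0.20). Of 10 Tip60/p400-specific genes, Epc1, a scaffold, was higher (0.51, FDR = 0.040) and Kat5, the acetyltransferase Tip60, was lower (−0.45, FDR = 0.040), and 18.0% of the Kat5 exon bases overlap other genes. None of 3 other YEATS-domain genes passed, with Mllt3 at 0.46 (FDR = 0.072) and Mllt1 at −0.09 (FDR = 0.76), and 1 of the 3 was higher at an unadjusted p under 0.05, with DESeq2 and with the exact test. The Epc1 call was lost without each library but shCon 1, and the Kat5 call without shCon 2 or either shGas41-2 library.

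None of 11 PRC2 genes passed with any of the 3 tools, and 1 was higher at an unadjusted p under 0.05. Ezh2, its methyltransferase, was at 98.3, 95.7 and 99.7 CPM in shCon and at 85.9 and 87.5 CPM with shGas41-2 (log2 fold change −0.16, FDR = 0.26), and Rbbp4, a histone chaperone in several complexes whose exons hold B2 sequence, had a value of 0.26 (FDR = 0.16). Of 20 PRC1 genes, Kdm2b, which brings PRC1 to CpG islands, was higher (0.71, FDR = 0.013), and the call was lost without shGas41-2 2. None of 64 clustered histone genes passed, although 57 had a positive log2 fold change, with a median of 0.19. At an unadjusted p under 0.05, 7 were higher and 1 was lower, and 3 were higher with DESeq2 and 5 with the exact test. The 2 nearest to the threshold were Hist1h3c (0.81, FDR = 0.057) and Hist1h2al (0.91, FDR = 0.077), which share 47% and 71.4% of their 50-base windows with other genes.

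Cell-cycle and stress genes gave scattered calls. Cdkn1b, the CDK inhibitor p27, was lower (log2 fold change −0.63, FDR = 0.015), while Gadd45g, a growth-arrest gene, rose from 0.510, 0.324 and 0.119 CPM in shCon to 1.40 and 1.38 CPM (2.17, FDR = 0.027). Of 19 cyclin, CDK and cell-cycle factor genes, Myc was higher (0.51, FDR = 0.022), and Ccnd1 (−0.52, FDR = 0.022) and Ccnb2 (−0.44, FDR = 0.038) were lower, and 21.3% of the Ccnd1 exon bases overlap other genes. Of 25 p53 targets, 2 were higher and 1 was lower, beside 5.94% and 3.97% of all genes. Rrm2b, a ribonucleotide reductase subunit with B2 sequence in its exons, was at 137, 146 and 96.7 CPM in shCon and 373 and 411 CPM with shGas41-2 (1.64, FDR = 0.0016), Plk2, a kinase, had a value of 0.57 (FDR = 0.043), and Gdf15, a stress cytokine, of −0.77 (FDR = 0.029). Apart from Rrm2b, whose call held without each library, all of these calls were lost without shCon 2 or either shGas41-2 library.

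Of 15 interferon-response genes tested, 2 were higher and 1 was lower, beside 5.94% and 3.97% of all genes. Oas2, a sensor of double-stranded RNA, rose from 4.18, 4.02 and 3.93 CPM in shCon to 7.98 and 8.65 CPM (log2 fold change 1.05, FDR = 0.0041). Ddx58, which encodes the sensor RIG-I, was higher (0.56, FDR = 0.041) and Ifit2 was lower (−0.70, FDR = 0.029). The stress-response list gave 1 call of 15, Nupr1 (−0.81, FDR = 0.020). Of 36 DNA replication genes, 2 were higher and 2 were lower, beside 5.94% and 3.97% of all genes. The polymerase alpha subunits Pola1 (1.19) and Pola2 (1.39, FDR = 0.0015) rose, Mcm10, a helicase factor, was lower (−0.75, FDR = 0.0029), as was Rfc4, a clamp-loader subunit (−0.47, FDR = 0.044). Pola1, Pola2 and Mcm10 hold B2 sequence, so that without such genes 0 members of that list were higher and 1 was lower. The Oas2 and Mcm10 calls were lost without shGas41-2 2, Ddx58 without each library but shCon 1, Nupr1 without either shGas41-2 library, and Ifit2 and Rfc4 without these or shCon 2.

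Of 88 ribosomal protein genes tested, 84 had a positive log2 fold change, with a median of 0.27. Of the 88, 10 passed, all upward, beside 5.94% of all genes. Under scaling by library size alone the median was 0.19, with 2 higher and 1 lower. Rpl39l, a testis-type paralog, was at 39.6, 38.1 and 26.1 CPM in shCon and at 58.5 and 62.4 CPM (log2 fold change 0.82, FDR = 0.025), and Rpl12 (0.52, FDR = 0.034), Rpl22l1 (0.49, FDR = 0.035) and Rplp1 (0.44, FDR = 0.019) were also higher. These genes have many processed copies, and 12.7% of the 50-base windows of Rpl12, 57.7% of those of Rpl22l1 and 54.6% of those of Rplp1 occur in other genes. The number that passed was 48 without shCon 1, 11 without shCon 3, and 0 without shCon 2 or without either shGas41-2 library.

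Cholesterol synthesis genes lay on the low side. None of 19 tested had a positive log2 fold change, the median was −0.39, and 3 passed, beside 3.97% of all genes that were lower. Idi1, an isomerase of the isoprenoid route, was at 168, 149 and 178 CPM in shCon and at 103 and 81.8 CPM with shGas41-2 (log2 fold change −0.83, FDR = 0.011), with 83.7% of its 50-base windows also in other genes. Nsdhl, a sterol dehydrogenase, had a value of −0.82 (FDR = 0.029). The number that passed was 11 without shCon 1, 1 without shCon 2, 2 without shCon 3, 1 without shGas41-2 1 and 0 without shGas41-2 2.

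Of 81 nuclear oxidative phosphorylation genes, 3 were higher (3.70%, beside 5.94% of all genes), namely Cox8c, a testis-type subunit (log2 fold change 2.07, FDR = 0.027), Atp5g1, a subunit of ATP synthase with B2 sequence in its exons (0.54, FDR = 0.017), and Cox7c (0.49, FDR = 0.036), 20.1% of whose 50-base windows occur in other genes. Of 33 glycolysis and hypoxia genes the only call was Eno2, an enolase (−0.72, FDR = 0.045), 3.03% of the list beside 3.97% of all genes. These 4 calls were lost without shCon 2 or either shGas41-2 library, and that of Eno2 also without shCon 3.

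**Figure D4:**
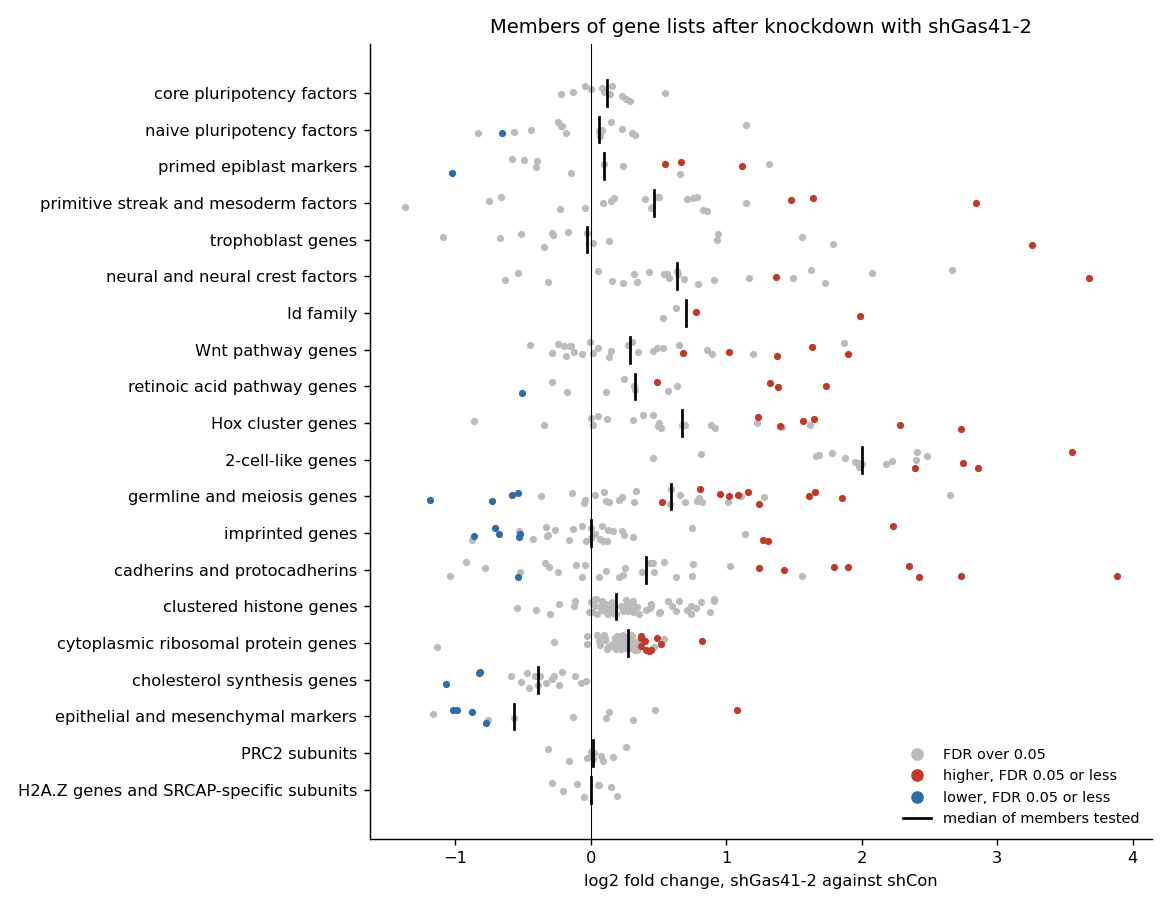
Each row is a gene list and each point a member tested, at its log2 fold change with shGas41-2 against shCon, with colours for members that passed an FDR of 0.05 upward or downward and a black bar at the median. The 2-cell-like list has the highest median, 2.00, and all cholesterol synthesis genes lie under 0. The core pluripotency and PRC2 lists and the list of H2A.Z genes and SRCAP subunits hold no call.

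Genes of the cell surface held several of the largest rises. Of 34 cadherins and protocadherins, 8 rose and 1 fell, 23.5% and 2.94% beside 5.94% and 3.97% of all genes. Of the 34, 22 were under 1 CPM in shCon, where 8.16% of all genes tested rose at least 2-fold. Without the shGas41-2 libraries 8 of the 34 would not have reached the count filter, including 4 of the 8 that rose. Of the other 26 members, 4 rose. Cdh17, the cadherin of liver and intestine (chr4:11685294-11745042), had the largest log2 fold change of the named rises, 3.88 ± 0.45 (SE, FDR = 0.0031), from 0.346, 0.211 and 0.0664 CPM in shCon to 2.63 and 3.32 CPM, and the call held without each library. Cdh5 (2.74, FDR = 0.011), Pcdh8 (2.42, FDR = 0.010) and Cdh13 (2.35, FDR = 0.020) rose as well. The list gave 5 rises without shCon 2, 3 without shGas41-2 1 and 1 without shGas41-2 2.

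Matrix and cytoskeleton genes gave calls both ways. Of 27 adhesion and actin genes, 6 rose and 1 fell, beside 5.94% and 3.97% of all genes. The rises include Thbs1, a matrix glycoprotein (1.94, FDR = 0.024), and Anxa2, a membrane-binding annexin (1.81, FDR = 0.0092). They also include S100a6, a calcium-binding protein (1.62, FDR = 0.0050), and Ctgf, a matrix-associated growth factor (1.32, FDR = 0.017). Of the Ctgf exon bases, 22.9% overlap other genes. Of 38 collagen and laminin genes, 3 rose, beside 5.94% of all genes. The 3 were Lama3 (1.88, FDR = 0.0027), Lama4 (1.61, FDR = 0.017) and Col6a5 (1.43, FDR = 0.025). Among 13 epithelial and mesenchymal markers, 4 were lower and 1 was higher, beside 3.97% and 5.94% of all genes. Fn1, fibronectin, was at 337, 422 and 569 CPM in shCon and at 218 and 216 CPM (log2 fold change −1.02, FDR = 0.024), Mmp14, a membrane protease, at −0.98 (FDR = 0.0085) and Cldn4, a tight-junction claudin, at −0.88 (FDR = 0.0034), while Snai1, a repressor of epithelial genes, was higher (1.08, FDR = 0.032). The adhesion list gave 3 rises without shCon 2 or shGas41-2 1 and 1 without shGas41-2 2, the collagen and laminin list gave 1 without any of these 3 and 6 without shCon 3, and the 4 falls became 2 without shCon 2, 0 without shGas41-2 1 and 1 without shGas41-2 2.

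Of 64 axon guidance genes, 6 rose and 1 fell, 9.38% and 1.56% beside 5.94% and 3.97% of all genes. Efnb2, an ephrin, was at 4.00, 3.66 and 2.46 CPM in shCon and at 13.8 and 13.7 CPM (log2 fold change 2.05, FDR = 0.0015), and the call held without each library. The netrin receptor Unc5d (2.21, FDR = 0.012), Sema6a (1.41, FDR = 0.048) and the plexin Plxnc1 (1.23, FDR = 0.046) followed. Of 88 ion channel genes, 1 rose and 3 fell, beside 5.94% and 3.97% of all genes. The rise was Cacna1s, a calcium channel (2.61, FDR = 0.024), which would not have reached the count filter without the shGas41-2 libraries. The falls were the potassium channel genes Kcnt2 (−1.17, FDR = 0.050), Kcnj3 (−1.15, FDR = 0.047) and Kcnh6 (−0.58, FDR = 0.047), and 31.1% of the Kcnj3 exon bases overlap other genes. All 4 channel calls were lost without shCon 2 or either shGas41-2 library, and the axon guidance list then gave 2 rises in each case.

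The largest rises outside the lists were in genes of unlike function with low levels in control cells. Adipoq, the adipocyte hormone adiponectin (chr16:23146609-23158101), was at 0.839, 0.900 and 0.412 CPM in shCon and at 6.77 and 9.36 CPM with shGas41-2 (log2 fold change 3.51 ± 0.30 SE, FDR = 0.0015). Mgat4c, a glycosyltransferase gene (3.06), Osta, an organic solute transporter (2.82), and Ly6c1, a surface antigen (2.96), also kept their calls without each library, and 30.6% of the 50-base windows of Ly6c1 occur in other genes. Diras2, a small GTPase (3.05), Grm2, a glutamate receptor (2.81), Pramel6, a gene of early embryos (3.05), and Trim43a (3.05) lost theirs without shGas41-2 1. Trim43a holds B2 sequence in its exons and shares 45.1% of its windows with other genes.

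After Yeats4, the largest falls were in Calb2, the calcium-binding protein calretinin (chr8:112661402-112692110), and Efhc2. Calb2 was at 17.7, 29.1 and 30.0 CPM in shCon and at 5.58 and 6.83 CPM with shGas41-2 (log2 fold change −2.03 ± 0.25 SE, FDR = 0.0039), below all controls, and the call held without each library. Efhc2, an EF-hand protein, also had a value of −2.03 (FDR = 0.036), with a standard error of 0.47, and its call was lost without shCon 2 or shGas41-2 2. Zmynd15, a zinc-finger repressor of haploid germ cells (−1.89, FDR = 0.0045), and Dnajc22, a co-chaperone (−1.84, FDR = 0.0021), kept their calls without each library, and 12.5% of the Zmynd15 exon bases overlap Cxcl16. Msi1, an RNA-binding protein of neural stem cells (−1.73, FDR = 0.018), Trim47 (−1.65, FDR = 0.010), Ankrd34a (−1.76, FDR = 0.011) and Mobp, a myelin protein (−1.61, FDR = 0.027), lost theirs without either shGas41-2 library, as did Mtmr11 (−1.59, FDR = 0.042) and the ubiquitin ligase Cblc (−1.57, FDR = 0.021). Sh3bgrl (−1.48, FDR = 0.0072) lost its call without shGas41-2 2, and 37.8% of the Mtmr11 exon bases overlap Gm17690.

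Among the falls with the lowest FDR, Piga, which starts GPI-anchor synthesis, was at 41.9, 39.6 and 44.0 CPM in shCon and at 21.2 and 19 CPM (log2 fold change −1.04, FDR = 0.0023). Nhedc1, a sodium/proton exchanger, was at 38.0, 31.3 and 30.2 CPM in shCon and at 14.4 and 11.8 CPM (−1.32, FDR = 0.0027). Both knockdown libraries lay below all controls for each, and both calls held without each library.

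The hairpins were then compared directly, since both KDs share their control libraries and 2 separate tests against them cannot show a difference. Of 19146 genes tested over the 8 libraries, 0 differed at an FDR of 0.05 with a 2-fold change (0%), and 0 at an FDR of 0.05 with no limit on size (0%), by edgeR's quasi-likelihood test. At an unadjusted p of 0.05, 711 genes were lower with shGas41-2 than with shGas41-1 (3.71%) and 637 were higher (3.33%). At an FDR of 0.05 with a 2-fold change, 71 genes differed with DESeq2 and 82 with edgeR's exact test. With no limit on size these were 171 and 148. Library shGas41-1 3 stood apart from the other shGas41-1 libraries, where the same chi-square ratio was 134 and 219 against them and 33.3 between the others, but no gene passed without it either.

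The genes with the lowest p in this comparison fell into 2 kinds. Some changed less with shGas41-2 than with shGas41-1, in either direction. Id2 was at 53.3, 46.8 and 58.0 CPM with shGas41-1, above both shGas41-2 libraries, a difference of −1.28 on the log2 scale (95% interval −1.75 to −0.81, unadjusted p = 1.3e-04). Sohlh2, a germ-cell factor, was at 35, 30.2 and 30.7 CPM in shCon, at 22.5 and 19.8 CPM with shGas41-2 and at 10.0, 9.30 and 8.93 CPM with shGas41-1 (difference 1.17, unadjusted p = 6.4e-06). Nkx6-3 (difference 1.25, unadjusted p = 4.3e-05), Gng3 (1.03, unadjusted p = 8.1e-05) and Rcn1 (0.82, unadjusted p = 8.1e-05) lay in between in the same way, and each was lower with shGas41-2 than in shCon, at log2 fold changes of −0.98, −0.64 and −0.36. Of the Gng3 exon bases 23.4% overlap Bscl2.

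Others lay on opposite sides of the control with the 2 hairpins, or near it with 1 of them. Rab5b, a GTPase of early endosomes, was at 58.1, 64.1 and 64.1 CPM in shCon, at 38.7 and 38.4 CPM with shGas41-2 and at 70.2, 82.8 and 74.3 CPM with shGas41-1 (difference −0.97, unadjusted p = 1.9e-05). Dnajb6, a co-chaperone, was at 197, 171 and 165 CPM in shCon, at 136 and 127 CPM with shGas41-2 and at 233, 222 and 269 CPM with shGas41-1 (difference −0.87, unadjusted p = 9.8e-05). Lpar4, a lysophosphatidic acid receptor, was at 3.47, 4.63 and 3.96 CPM in shCon, at 1.90 and 1.92 CPM with shGas41-2 and at 4.02, 4.45 and 4.73 CPM with shGas41-1 (difference −1.19, unadjusted p = 1.0e-04). In these 3 genes the libraries of the hairpins did not overlap and shGas41-2 was the lower. Of the 50-base windows, 9.19% of Rab5b and 13.5% of Dnajb6 occur in other genes. Rhov, a small GTPase, was at 2.73, 2.71 and 2.58 CPM in shCon, close to its 2.54 and 2.41 CPM with shGas41-2, and lower with shGas41-1 at 1.03, 1.06 and 0.899 CPM (difference 1.31, unadjusted p = 3.6e-05). Rarres1 was at or under 3 counts in shCon and higher with shGas41-1 than with shGas41-2 in every library.

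Other lineage and growth genes named above lay nearer to shCon with shGas41-2 in this comparison. Gadd45g was at 4.63, 2.85 and 4.76 CPM with shGas41-1 (difference −1.55, unadjusted p = 0.0036), Fgfr2 at 4.04, 6.32 and 3.01 CPM (−1.35, unadjusted p = 0.0016), Ctgf at 38.8, 33.2 and 28.0 CPM (−1.15, unadjusted p = 0.0012) and Gata3 at 3.18, 2.36 and 1.43 CPM (−1.05, unadjusted p = 0.015). For Evx1 the interval of the difference ran from −1.15 to 1.37, and for Cdh17 from −0.85 to 0.75, so these libraries do not settle which hairpin gave the higher level. Sox7 was higher with shGas41-2 than with shGas41-1 (0.96, unadjusted p = 0.0046). None of these passed adjustment over all genes.

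**Figure D5:**
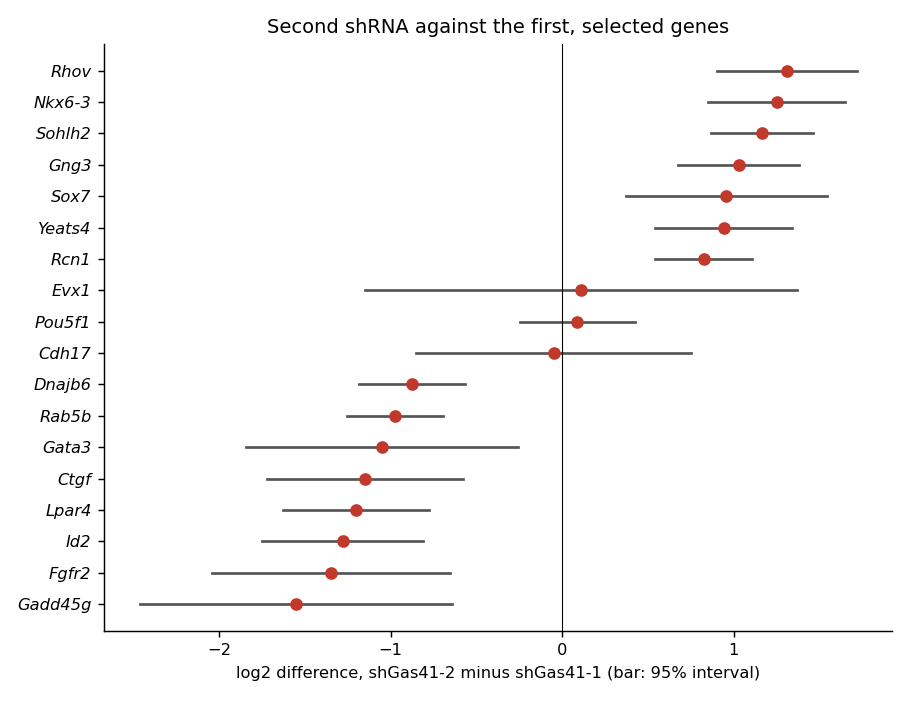
Points give the log2 difference of shGas41-2 minus shGas41-1 for named genes with bars for the 95% interval, sorted by value, and 0 is marked. Yeats4 lies at 0.94, Id2 at −1.28 and Gadd45g at −1.55, and the intervals of Evx1, Pou5f1 and Cdh17 cross 0.

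The seed of shGas41-2 was looked for in other transcripts, since a hairpin can act on mRNAs that match its seed. Of 14843 genes tested with an annotated 3′ UTR, 283 (1.91%) held TCGTTTA, the sense-strand match to guide bases 2 to 8, in their longest 3′ UTR. Their median log2 fold change was −0.06, against −0.04 for the others. At an FDR of 0.05, 4.95% of them were higher and 4.95% lower, against 5.99% and 4.51% of the others. Genes with the match had longer 3′ UTRs, with a median of 2647 against 1072 bases. The control hairpin's match, AGCACCA, was in 1571 genes (10.6%), also at a median of −0.06 against −0.04.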

How the data were processed

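J1 mESC RNA-seq libraries were made by the authors with a TruSeq kit, mapped to mm9 with TopHat2 (2.0.10, with Bowtie2 2.1.0, per the submitters' processing notes) and counted per gene with htseq-count. Strand use and the treatment of reads with several matches are not given in the sources used here. The deposited values are whole-number read counts without normalization. Deposited fold changes, p-values and FDR of the authors' own comparisons were not used.

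Counts were analysed with edgeR 4.0.16 in R 4.3.3. Genes with too few reads were dropped with filterByExpr (10 reads at least, 15 in total), libraries were scaled by TMM (factors 0.956 to 1.03), and shGas41-2 was compared with shCon by the quasi-likelihood test, with an FDR of 0.05 and a 2-fold change for a call. The hairpins were contrasted in a fit of all 8 libraries, whose TMM scale gave the CPM. The procedure was run on simulated counts with known changes in better-counted genes only, which does not bear on calls in genes with few counts. The simulated libraries were drawn independently, without any structure shared by replicate number. Gene lists were written from textbook knowledge. The members and lists were chosen with earlier results of these data known. A list was described by the number with an FDR of 0.05 or less and its median, with no set test. Where a count is given without them, the shares of all genes tested to set beside it are 5.94% higher and 3.97% lower at that FDR. Genes named are those the study followed by RT-PCR, the 12 largest called rises and falls at 1 CPM or more, the 6 with the lowest FDR each way, up to 4 per list (2 where none passed) and 5 each way between hairpins. Positions, exons and repeats came from mm9 (NCBIM37) and GENCODE vM1, and hairpin targets from the study's supplement. Alternatives were other scalings, filters and tests (DESeq2 1.42.0), a replicate block and each library left out. ChIP-seq and embryoid bodies were not analysed here, and some genes that the naming rule picks are not reported here.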

Additional observations from a re-analysis of the deposited data

How the results depend on the processing

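Of 728 rises and 160 falls, scaling by library size alone gave 669 and 246, edgeR's exact test 1090 and 249, DESeq2 763 and 191, no fold limit 1094 and 730 (961 and 1290 with scaling by library size alone), and a test of the 2-fold limit itself (glmTreat) 7 and 1. Leaving out each library gave between 269 and 1174 rises and between 18 and 293 falls. The cause was not tested, although a group left with 1 library is assumed to vary like the other. Leaving out genes with a B2 piece, chosen after the calls were seen, gave 537 and 160. With the replicate number as a block there were 1122 rises and 212 falls, or 3536 and 3630 with no fold limit, where 6 core pluripotency genes were higher, oxidative phosphorylation gave 9 higher and 17 lower, and glycolysis 8 and 7. Libraries of the same number deviated together (correlations of 0.575 and 0.534), but the deviations of the 2 shGas41-2 libraries mirror each other, so these are not separate results. Library shCon 3, of another number, correlated at 0.300 with shGas41-2 2. With 2 pairs the libraries share only a number. No call of a named gene was lost with the block. Between the hairpins, 4 genes differed without the count filter, 71 with DESeq2 and 82 with the exact test, and 0 in all other settings, including each library left out. Of 132 named genes that passed, 99 lost an FDR of 0.05 when at least 1 library was left out. Yeats4 passed in every setting. With 2 libraries against 3, small changes in genes with few counts could not be detected.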
